A study of Xenopus laevis with 24 samples.

Results

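The genes described here fell between stages NF25 and NF33 in control foregut explants of Xenopus laevis. At NF33 they stood higher than in controls in explants with Rfx6 knocked down. In explants with retinoic acid signalling blocked, they stood less than 0.4 above controls at NF33 on a log2 scale. They are 300 of 44478 genes in the table. They were chosen by a rule on TPM, transcripts per 1e6 in the authors' table, a level that takes account of gene length and of library size. For each gene, log2(mean TPM of 3 libraries + 1) had to be at least 1 lower in NF33 than in NF25 controls and at least 0.8 higher in NF33 rfx6 morphants than in NF33 controls. The difference between BMS493 explants and controls at NF33 had to be under 0.4, and that between rfx6 morphants and controls at NF25 under 0.8. Of 2869 genes that fell in controls, 723 met the second criterion, 481 of these also the third, and 428 all of them. The 300 with the largest rfx6 difference at NF33 were kept. These 4 contrasts therefore chose the members, and their values are given as a description. The NF38 libraries had no part in the choice.

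The tissue was foregut endoderm with its mesoderm, cut from wild-type embryos (NXR_0031) at NF15 and cultured at 15 °C. Per the labels, the last culture step was 16 h for the NF25 and NF33 groups and 12 h for the NF38 groups. Rfx6 morphants (NF25, NF33 and NF38) carried 2.5 ng of a morpholino that blocks rfx6 translation. BMS493 explants (NF25 and NF33) were kept from dissection in 250 nM of this drug, an inverse agonist of retinoic acid receptors. Controls (NF25, NF33 and NF38) carried 2.5 ng of a mismatch oligonucleotide and were cultured in 0.1% DMSO. Each of the 8 groups had 3 libraries, each from a pool of 8 explants, with 19433955 to 31005048 counts per library and a within-group correlation of log2 CPM across genes of at least 0.9856. The labels do not say whether BMS493 explants carried an oligonucleotide, whether morphants were kept in DMSO, or which parents the embryos had. None of the 24 libraries was of BMS493 explants at NF38. The batch tag repeats the stage, so stage and batch cannot be told apart.

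Rfx6 is a winged-helix transcription factor of the gut endoderm, best known in mouse and human for its need in endocrine cells of the pancreas and intestine. Retinoic acid, made from vitamin A, acts through nuclear receptors and patterns the foregut along its length. Over these stages the foregut passes from a yolk-rich early endoderm with its mesoderm toward organ buds, and genes of the early embryo are turned down. The identifiers in the files carry no symbols, and 0 of them matched a RefSeq gene table of 44456 genes, so no member can be given a name, a role or a sequence, and rfx6 and cell type markers were not followed; blocking translation does not by itself change RNA level. Near-identical gene copies of this allotetraploid frog may share reads, which makes values of single identifiers uncertain.

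The members were abundant early and declined in every series of explants, and at NF38, as at NF33, most stood higher in rfx6 morphants than in controls. Their TPM summed over all 300 was 44261 ± 1330, 18877 ± 290 and 7116 ± 44.9 in rfx6 morphants at NF25, NF33 and NF38. It was 36550 ± 899 and 8243 ± 327 in BMS493 explants at NF25 and NF33, and 36619 ± 84.1, 8444 ± 106 and 3206 ± 68.0 in controls at NF25, NF33 and NF38 (SD, n = 3 each). The members thus made up 1.89% of all TPM in NF33 morphants, 0.824% in NF33 BMS493 explants and 0.844% in NF33 controls. The sum in morphants was 1.21, 2.24 and 2.22 times that in controls at NF25, NF33 and NF38. In these bulk libraries, fewer cells that hold these RNAs and less RNA per cell cannot be told apart.

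At NF38, which the rule did not use, the difference in the sum was not carried by the most abundant members alone. The NF33 values below follow from the rule, which required a difference of every member, and are given as a description. The median member stood at 15.2 ± 0.133 TPM in NF33 morphants, 6.35 ± 0.146 TPM in NF33 BMS493 explants and 6.30 ± 0.0984 TPM in NF33 controls (mean of the library medians, SD, n = 3). At NF38 it stood at 7.59 ± 0.387 TPM in morphants and 3.85 ± 0.0551 TPM in controls. Without the 3 members most abundant in NF33 morphants, the sum was 12603 ± 182 TPM in NF33 morphants and 5545 ± 69.8 TPM in NF33 controls, and 5852 ± 59.6 TPM in NF38 morphants and 2700 ± 75.3 TPM in NF38 controls.

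**Figure D1:**
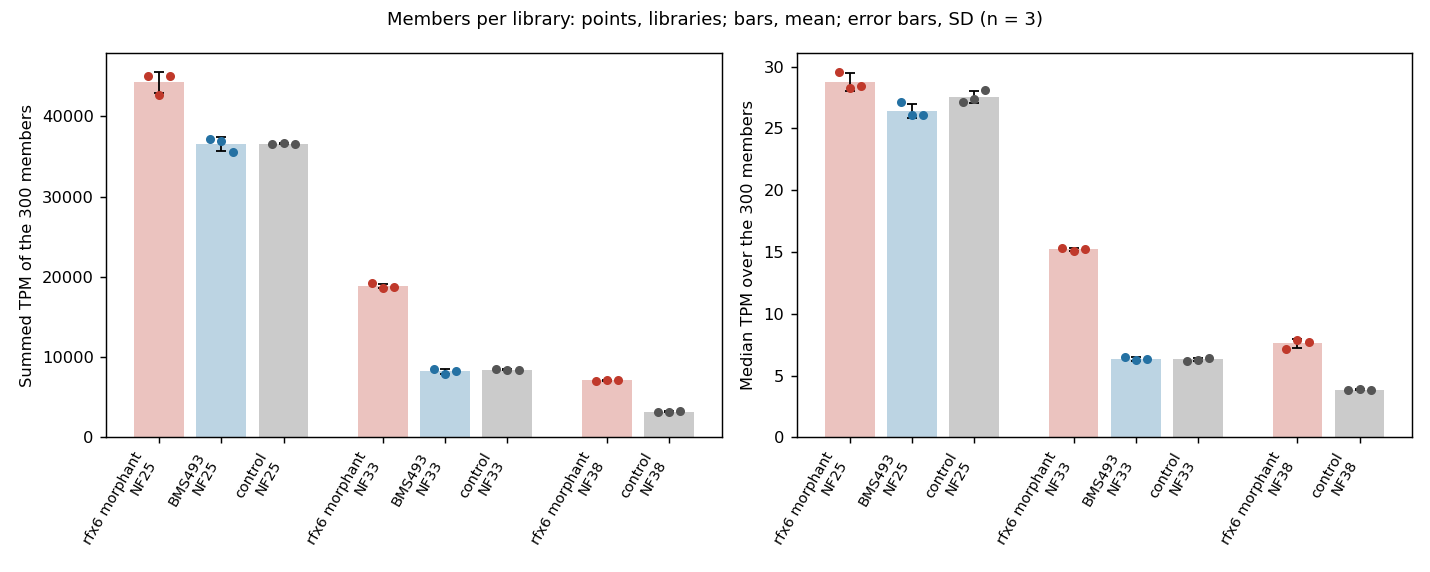
Summed TPM (left) and median TPM (right) of the 300 members in each library, by treatment and stage, with points for libraries, bars for means and error bars for the SD of 3 libraries. At NF33 the rfx6 morphant sums lie near 18877 TPM while BMS493 and control sums lie near 8243 and 8444 TPM, a pattern the choice of members fixes; at NF38, which the choice did not use, they lie at 7116 TPM in morphants and 3206 TPM in controls.

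The members still declined in morphants. From NF25 to NF33, the sum decreased 2.34-fold in morphants and 4.34-fold in controls. In morphants 114 members were at least 2-fold lower at NF33 than at NF25 on the log2(TPM + 1) scale, 147 were lower by less than 2-fold, and 39 were at or above their NF25 level. The morphant level at NF33 was also set against the control decline on the log2(TPM + 1) scale. It lay a median of 62.0% of the way back up from the NF33 control to the NF25 control (quartiles 47.2% and 79.0%). It lay under 50% of the way for 90 members and at or above the NF25 control for 28. These are shares of a log2 difference, not of TPM. XBXL10_1g35008, at 34.7%, averaged 524 TPM in NF25 controls, 2.83 TPM in NF33 controls and 20.1 TPM in NF33 morphants. On counts, 256 members were called lower at NF33 than at NF25 in morphants (32.6% of all genes tested) and 280 in BMS493 explants (33.7% of all genes). Most members therefore fell in morphants too. On the log2(TPM + 1) scale, the choice of members required every one of them to fall by less in morphants than in controls. Over the next step, from NF33 to NF38, the sum fell by a like factor, 2.65-fold in morphants and 2.63-fold in controls. For the median member the 2 measures did not give the same order. On the log2(TPM + 1) scale it changed by -0.91 in morphants and -0.69 in controls. On counts the median log2 fold change of the tested members was -0.75 in morphants and -0.88 in controls. Over that step 250 members were called lower in morphants (27.6% of all genes) and 214 in controls (26.5% of all genes). These calls are from edgeR at an adjusted p under 0.05, and share libraries with the rule, so they are given as a description. By NF38, 111 members stood in morphants at or below the level that controls had at NF33.

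**Figure D2:**
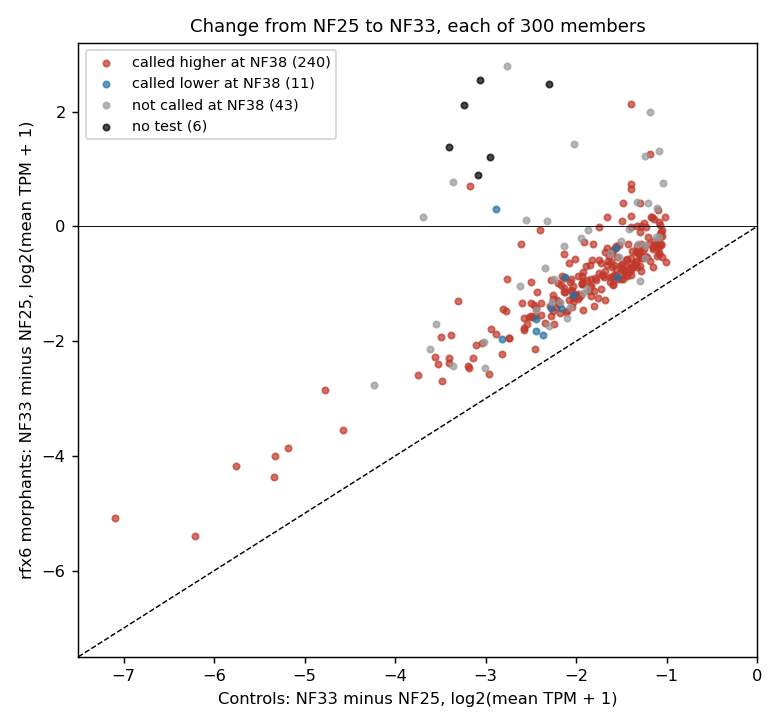
Change of each of the 300 members from NF25 to NF33, as differences of log2(mean TPM + 1), in controls (horizontal) and rfx6 morphants (vertical); colours give the call at NF38 and the dashed line marks equal change. The rule places every member above the line, and 261 members lie below 0 on the vertical axis.

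In the contrasts that chose them, the members looked as follows on the deposited counts, tested with edgeR's quasi-likelihood test. The test covered 28313 genes that passed a filter on low counts, including 294 of the 300 members, and called a gene at an adjusted p under 0.05. At NF33, 283 members were called higher in rfx6 morphants than in controls, against 25.5% of all genes tested, and 0 lower, against 24.3% of all genes. All 3 TPM values of morphants lay above all 3 of controls for 284 members, against 34.0% of all genes. From NF25 to NF33 in controls, 285 were called lower, against 35.1% of all genes, and 1 higher, against 35.8% of all genes. At NF25, 188 were called higher in morphants (18% of all genes) and 22 lower (16.6% of all genes). The median log2 fold change of the tested members at NF25 was 0.27, against 0.0 over all genes tested. Under BMS493 at NF33, 51 were called higher (12.8% of all genes) and 77 lower (16.2% of all genes), with a median log2 fold change of -0.01 against -0.02. Nothing is read from these counts, since the rule used each of the contrasts.

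The most abundant member in NF33 morphants, XBXL10_1g42201, and the next were picked after their values were seen. Its TPM was 3222, 3140 and 3140 in NF33 morphants, 1797, 1660 and 1728 in NF33 BMS493 explants, and 1624, 1576 and 1571 in NF33 controls. All morphant libraries lay above all others of that stage. At NF25 it averaged 4510 ± 190 TPM in morphants, 4590 ± 176 TPM in BMS493 explants and 3900 ± 38.7 TPM in controls (SD, n = 3). At NF38 it stood at 1011, 960 and 986 TPM in morphants and at 348, 361 and 344 TPM in controls, without overlap. The log2 fold change at NF38 was 1.55 (SE 0.0486; edgeR adjusted p = 1.2e-40).

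XBXL10_1g42188, second in level, fell further by NF38, also with morphants highest at NF33. It averaged 6230 ± 168 TPM in morphants, 6300 ± 203 TPM in BMS493 explants and 4760 ± 72.9 TPM in controls at NF25. At NF33 it averaged 1830 ± 64.0 TPM in morphants, 770 ± 32.4 TPM in BMS493 explants and 795 ± 8.27 TPM in controls. At NF38 it was at 202, 195 and 206 TPM in morphants and at 74.1, 72.2 and 75.3 TPM in controls, again without overlap (log2 fold change 1.5, SE 0.0486; edgeR adjusted p = 1.21e-39).

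At NF38, in libraries that the rule did not use, most members were still higher in rfx6 morphants than in controls. Of the 300, 240 were called higher, against 25.4% of all genes tested, and 11 were called lower, against 21.7% of all genes. Another 43 were not called and 6 had too few counts for a test. At least 2-fold, 173 were called higher (9.01% of all genes) and 3 lower (1.92% of all genes). All 3 TPM values of morphants lay above all 3 of controls for 229 members, against 24% of all genes, and 228 of these were also called. All 3 lay below for 13 members, against 27.6% of all genes. The median log2 fold change of the tested members was 1.15 (quartiles 0.74 and 1.5), against 0.01 over all genes tested. The summed TPM differed by 1.15 on the log2 scale, with a spread between libraries of 0.0319 (SD of both groups combined).

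Fewer members of low level than of high level were called at NF38, and no test compared these counts. Among the 100 members highest in NF33 morphants (27.6 to 3170 TPM), 92 were called higher at NF38 and 0 lower. Among the 100 in the middle (9.75 to 27.6 TPM), 85 were higher and 8 lower. Among the 100 lowest (1.19 to 9.26 TPM), 63 were higher and 3 lower. Of all genes tested, 25.4% were called higher and 21.7% lower, and these shares were not split by level. In all, 30 members stood under 1 TPM in both NF38 groups. On the log2(TPM + 1) scale, 39 members had not declined in morphants by NF33. Of these, 19 were called higher at NF38, against 221 of the 261 that had declined. The 39 also stood at a lower level in NF33 morphants, with a median of 8.35 TPM against 17.2 TPM, so level and course are mixed here. On counts, edgeR called 12 members higher at NF33 than at NF25 in morphants (35.9% of all genes). For 12 members called higher, the TPM values of morphants and controls at NF38 overlapped.

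Among members called higher at NF38, XBXL10_1g36388 had the second largest log2 fold change, with ample counts in morphants but few in controls. At NF33 its TPM was 81.5, 78.3 and 83.5 in rfx6 morphants, 11.6, 10.4 and 11.5 in BMS493 explants, and 12.4, 13.3 and 13.4 in controls. At NF25 it averaged 201 ± 10.1 TPM in morphants, 53.8 ± 3.08 TPM in BMS493 explants and 138 ± 0.529 TPM in controls. At NF38 it had 2.20, 1.77 and 2.15 TPM in morphants (429 counts) and 0.03, 0.02 and 0.10 TPM in controls (10 counts). It was close to absent in NF38 controls and low in NF38 morphants, with no overlap at either later stage. The log2 fold change was 5.33 (SE 0.229; edgeR adjusted p = 1.7e-32), and 6.30 without control NF38 replicate 3, which held the most TPM of the 3 controls. With limma on log2(TPM + 1) it was 1.53 (adjusted p = 7.93e-14). The size of the change thus depended on how values near 0 in controls were treated.

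XBXL10_1g31959 had the largest log2 fold change at NF38, but at very low levels. It had 32 counts over the 3 morphant libraries and 0 counts over the 3 controls. At 0.367 ± 0.157 CPM (counts scaled by TMM library size) in morphants, it was at least 10.4-fold above the 0.0353 CPM that 3 counts over the control group would give (edgeR adjusted p = 9.43e-06). On TPM the groups overlapped, with 0.11, 0.27 and 0.51 in morphants and 0.36, 0.00 and 0.00 in controls, and limma on log2(TPM + 1) did not call it (adjusted p = 0.638; its adjusted p over all alternatives ran from 1.17e-08 to 0.638).

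A small group ran the other way. XBXL10_1g20583 stood higher in morphants than in controls at NF33, at 1.23, 1.53 and 1.70 TPM against 0.22, 0.06 and 0.09 TPM. At NF38 it stood lower, at 0.47, 0.55 and 0.48 TPM in morphants and 1.96, 2.27 and 2.66 TPM in controls, above their own NF33 level. The groups did not overlap at either stage, and the log2 fold change at NF38 was -2.14 (SE 0.244; edgeR adjusted p = 7.95e-12). On the log2(TPM + 1) scale, 10 members were at least 2-fold higher in controls at NF38 than at NF33. Of these, 3 were called higher in NF38 morphants (25.4% of all genes) and 2 lower (21.7% of all genes). XBXL10_1g25217, among the 10, had 102 counts in NF33 controls and 88 in NF38 controls, so its rise was in TPM without matching counts. On counts, edgeR called 11 members at least 2-fold higher in controls at NF38 than at NF33 (10.5% of all genes). The 10 members are too few to show whether a rise in controls goes with a lower level in morphants.

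XBXL10_1g20010, the second of the lower members by log2 fold change, was close to absent by NF38. It had 0.05, 0.07 and 0.12 TPM in morphants (5 counts) and 0.16, 0.49 and 0.22 TPM in controls (16 counts), and its log2 fold change was -1.64 (SE 0.668; edgeR adjusted p = 0.0372). The call was lost without control replicate 2 (-1.15, adjusted p = 0.238), morphant replicate 1 (-1.50, 0.0865) or morphant replicate 2 (-1.47, 0.0941), with the 6 compared libraries alone (0.1) and with limma (0.125). Without morphant replicate 3 the log2 fold change was -2.28 (adjusted p = 0.0226), and over all alternatives adjusted p ran from 0.014 to 0.238.

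**Figure D3:**
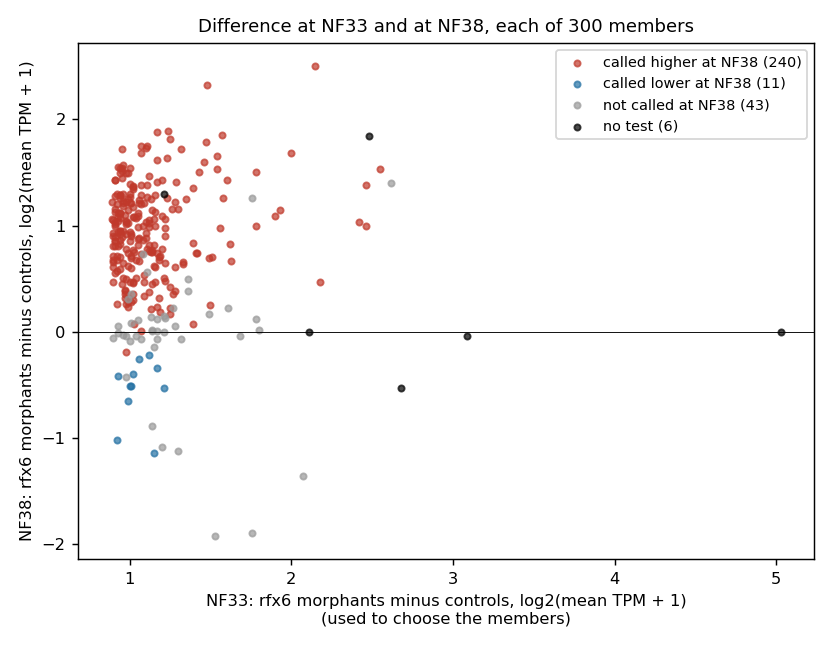
Difference between rfx6 morphants and controls for each of the 300 members, as log2(mean TPM + 1), at NF33 (horizontal, used to choose them) and at NF38 (vertical), coloured by the edgeR call at NF38. Of the 300, 265 lie above 0 at NF38, while the 2 members farthest right (5.03 and 3.09 at NF33) lie at 0.0 and -0.04 at NF38 and have no test.

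Other falling genes were also called higher more often than lower at NF38. Of the 128 genes that met every criterion but lay beyond the limit of 300, 85.2% were called higher and 3.91% lower in morphants. Of 242 falling genes raised at NF33 in morphants and also by at least 0.4 under BMS493, 66.9% were called higher and 4.55% lower. Of 2146 falling genes not raised by 0.8 in NF33 morphants, 44.8% were called higher and 12.1% lower. For the members these shares were 80.0% and 3.67%. Each share is of all genes in the set, with or without a test. A test was made for 294 of the 300 members, all 128 genes beyond the limit, 216 of the 242 and 2013 of the 2146. Untested genes cannot be called, so they lower a share, but the order of the sets did not rest on them. Among tested genes, 240 of 294 members, 109 of 128, 162 of 216 and 961 of 2013 were called higher, the same order. In these sets 11, 5, 11 and 260 were called lower. No test compared the shares, and the sets were not matched for level.

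**Figure D4:**
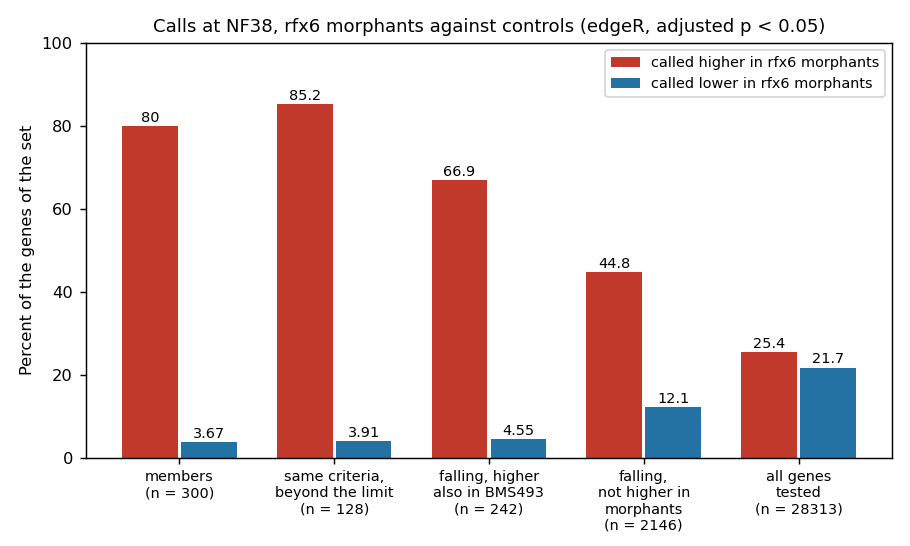
Percent of each set of genes called higher or lower at NF38 in rfx6 morphants against controls. Bars for called higher stand at 80.0% of the members, 85.2% of the genes beyond the limit, 66.9% of falling genes also raised under BMS493, 44.8% of falling genes not raised by the rule's threshold in morphants and 25.4% of all genes tested. Shares of the sets include genes without a test, while the last bar counts tested genes only.

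Under BMS493 at NF25 some members were called in each direction, while their sum was close to that of controls. The BMS493 NF25 libraries were outside the rule, but the NF25 controls were not: members had to be high there, so lower calls are favoured and the counts are a description. Of the 300, 62 were called higher (16.1% of all genes) and 82 lower (14.8% of all genes). At least 2-fold, 2 were higher (3.83% of all genes) and 19 lower (2.4% of all genes). The summed TPM was 0.998 times that of controls, and the median log2 fold change was -0.01 against 0.01 over all genes tested. With total library size as the scaling, 45 members were called higher (12.7% of all genes) and 88 lower (18.2% of all genes). With limma on log2(TPM + 1), 34 members were called higher, a share of 11.3% against 11.1% of all genes, so that the share of members was then near that of all genes.

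The 2 members with the largest higher calls under BMS493 at NF25 were modestly raised. XBXL10_1g40756 had 15.8, 25.5 and 18.3 TPM in BMS493 explants and 8.81, 9.64 and 9.65 TPM in controls, without overlap (log2 fold change 1.19, SE 0.298; edgeR adjusted p = 0.00104). XBXL10_1g8233 had 21.1, 15.3 and 11.8 TPM in BMS493 explants and 16.0, 6.32 and 5.79 TPM in controls. Its groups overlapped on TPM, while edgeR on counts put its log2 fold change at 1.09 (SE 0.132; adjusted p = 1.54e-10). With limma on log2(TPM + 1) it was not called (adjusted p = 0.115, with a range over the alternatives from 6.4e-14 to 0.115).

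The lower members changed more. XBXL10_1g43524 had 0.47, 0.63 and 0.51 TPM in NF25 BMS493 explants and 6.08, 7.22 and 6.26 TPM in NF25 controls, and its log2 fold change was -3.88 (SE 0.256; edgeR adjusted p = 1.09e-21). At NF33 it averaged 3.99 ± 0.866 TPM in rfx6 morphants, 0.543 ± 0.0777 TPM in BMS493 explants, close to their NF25 level, and 1.68 ± 0.261 TPM in controls. XBXL10_1g21278 had 0.25, 0.26 and 0.00 TPM in NF25 BMS493 explants and 2.16, 2.96 and 2.30 TPM in NF25 controls (log2 fold change -3.71, SE 0.516; edgeR adjusted p = 1.11e-08). Without BMS493 NF25 replicate 3, the library at 0, its log2 fold change was -3.10. Neither gene's groups overlapped.

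**Figure D5:**
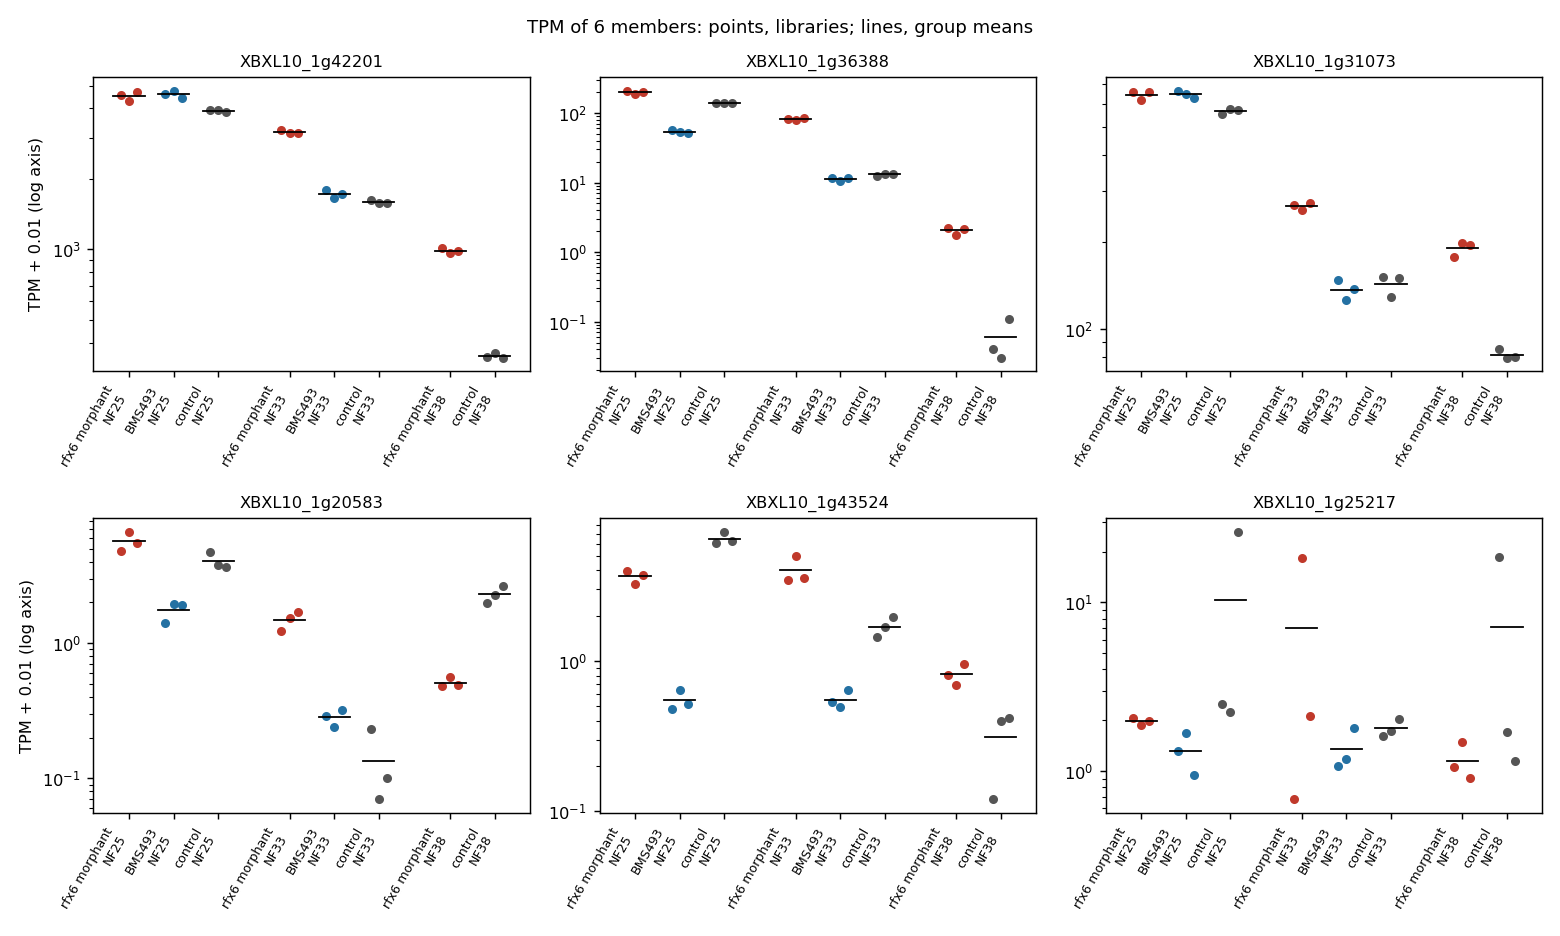
TPM (plus 0.01, log axis) of 6 members in every library by treatment and stage, with points for libraries and lines for group means. XBXL10_1g42201, XBXL10_1g36388 and XBXL10_1g31073 lie higher in rfx6 morphants than in controls at NF33 and NF38, XBXL10_1g20583 turns lower at NF38, XBXL10_1g43524 is lower under BMS493 than in controls at NF25, and XBXL10_1g25217 has a high mean in NF33 morphants from 1 library.

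For some members the higher level at NF33 rested on few counts or on 1 library. For 11 members over 80% of the TPM summed over the NF33 morphant libraries came from 1 library, and 4 of these were among the 10 with the largest difference at NF33. The 2 largest were of this kind. XBXL10_1g39603 had 0.00, 0.00 and 95.1 TPM in NF33 morphants from 3 counts in all and 0.00 TPM in all NF33 controls. XBXL10_1g6648 had 0.06, 23.6 and 0.04 TPM in NF33 morphants (7 counts) and 0.05, 0.00 and 0.09 TPM in NF33 controls (3 counts). In NF25 controls XBXL10_1g39603 had 0.00, 0.00 and 29.0 TPM (0 counts), and XBXL10_1g6648 had 0.00, 0.00 and 23.6 TPM (2 counts). Neither had enough counts for a test. Their rank rests on the TPM of 1 NF33 morphant library each, and their fall in controls on that of 1 NF25 control library each.

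In a further case, picked after its values were seen, TPM moved without counts. XBXL10_1g25217 had 0.67, 18.4 and 2.10 TPM in NF33 morphants beside 9, 42 and 40 counts, and 1.61, 1.71 and 2.03 TPM in NF33 controls beside 30, 33 and 39 counts. In NF38 controls it had 18.5, 1.70 and 1.14 TPM beside 32, 31 and 25 counts. A high TPM thus appeared in 1 library of a group without a matching count, and its cause was not tested. It was not the only mismatch of this kind. For 3 members at NF33 and 10 at NF38, TPM and CPM did not place morphants and controls in the same order. Over all genes and libraries, 6245 values had a count of 0 beside a TPM above 0. Without the 11 members carried by 1 library, 239 of 289 were called higher at NF38 and 11 lower.

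On the log2(mean TPM + 1) scale, 17 members were already at least 2-fold lower in morphants than in controls at NF25. On counts, edgeR called 4 members at least 2-fold lower there (2.68% of all genes). XBXL10_1g25217, among the 17, had 93 counts in NF25 morphants and 85 in NF25 controls, so this group partly reflects TPM without matching counts. Of the 17, 4 were called higher at NF38 (23.5%), a share near the 25.4% of all genes tested, and 1 lower (5.88%, against 21.7% of all genes). Of the other 283, 236 were called higher (83.4%) and 10 lower (3.53%). At the limit, the last member inside, XBXL10_1g31073, differed by 0.8937 on the log2(TPM + 1) scale at NF33, and the first gene outside, XBXL10_1g36181, by 0.8919. XBXL10_1g31073 had 269, 257 and 273 TPM in NF33 morphants and 151, 129 and 149 TPM in NF33 controls. XBXL10_1g36181 had 5.98, 5.84 and 6.13 TPM in NF33 morphants and 2.66, 2.74 and 2.89 TPM in NF33 controls. At NF38 the log2 fold change was 1.28 (SE 0.0532; edgeR adjusted p = 3.76e-33) for the one inside and 0.91 (SE 0.0947; edgeR adjusted p = 4.17e-13) for the one outside. In all, 98 members lay within 0.1 of the limit.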

How the data were processed

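RNA was measured in 24 libraries. Estimated counts, stored as whole numbers, and TPM come as 1 deposited table each, made by the authors. Per the submitters' processing notes, RSEM 1.3.0 and Bowtie2 were used, with roles not stated; build, annotation and strand setting: not given in the sources used here. Per the labels, the library kit kept strand. The row without a gene identifier held 0% of counts and was left out.

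The members, tests and rules for naming genes were chosen with earlier results of these data known. Members were found on TPM with a pseudocount of 1. For counts, edgeR 4.0.16 (R 4.3.3) was run on all 24 libraries: filterByExpr (minimum count 10, minimum total count 15), TMM scaling, 1 mean per group, robust glmQLFit and glmQLFTest, Benjamini-Hochberg adjustment over 28313 genes, threshold 0.05. The code was tested on simulated data. Alternatives used DESeq2 1.42.0 and limma 3.58.1. P-values measure the spread between pools of explants, and counting floors cover counting error only.

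Named members are those with the 2 largest rfx6 differences at NF33, the 2 largest called log2 fold changes in each direction at NF38 and under BMS493 at NF25, and the genes at either side of the limit. How reads shared by near-identical copies were assigned is not stated, and can move single identifiers.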

Additional observations from a re-analysis of the deposited data

Results flagged for a closer look

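Among members named by the rule, the rfx6 effect of 5 differed between stages by edgeR's test of the difference (NF38 minus NF33, on the log2 scale). It was 2.80 for XBXL10_1g36388 (adjusted p = 6.75e-12) and 0.47 for XBXL10_1g31073 (adjusted p = 2.15e-07), both higher in morphants at both stages. It was -5.59 for XBXL10_1g20583 (adjusted p = 2.83e-18) and -3.12 for XBXL10_1g20010 (adjusted p = 0.000289), which were higher in morphants at NF33 and lower at NF38, and -2.53 for XBXL10_1g21278 (adjusted p = 0.00105). For XBXL10_1g36388 the order of the stages depended on the scale. On log2(TPM + 1) its rfx6 difference was 2.55 at NF33 and 1.53 at NF38, and its NF38 controls held 10 counts in all. The NF33 difference chose the 5 genes, and XBXL10_1g36388, XBXL10_1g20583 and XBXL10_1g20010 were named for their NF38 difference. Stages also carry different batch tags, so the values are a description. Over all 300 members, that test called 91 with a higher effect at NF38 (18.6% of all genes) and 69 with a lower one (12.4% of all genes).

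Among the same members, the BMS493 effect of 6 differed between stages by the same test (NF33 minus NF25). It was 2.39 for XBXL10_1g43524 (adjusted p = 4.25e-06), 3.88 for XBXL10_1g21278 (adjusted p = 0.000138) and -0.71 for XBXL10_1g8233 (adjusted p = 0.00669). These genes were named for their NF25 difference. It was 1.06 for XBXL10_1g36388 (adjusted p = 7.27e-20), 2.26 for XBXL10_1g20583 (adjusted p = 0.000837) and -0.34 for XBXL10_1g31073 (adjusted p = 8.53e-05), which were named for other reasons. The rule bounded the NF33 difference, so these values are a description.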

How the results depend on the processing

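At NF38 the members called higher numbered 239 with DESeq2, 240 with DESeq2 size factors, total library size or another TMM reference, 225 with limma on log2(TPM + 1) (19.5% of all genes tested), 239 with no filter on low counts (16.6%) and 238 with the 6 compared libraries alone (25.8%); under the first 4 settings the share of all genes ran from 23.2% to 24.8%. Leaving out 1 library gave 234 to 242 higher (20.1% to 23.3% of all genes) and 8 to 12 lower (19.7% to 25.4%) at NF38. Under BMS493 at NF25 it gave 51 to 71 higher (13.8% to 17.0% of all genes) and 72 to 76 lower (11.1% to 12.6%). The log2 difference of the summed TPM at NF38 ran from 1.14 to 1.17. Under BMS493 at NF25 the number called higher was 34 with limma (11.1% of all genes). Over all 428 genes meeting the criteria (added after seeing the data) it was 95 (16.1% of all genes), with more genes then counted. Same-numbered libraries did not deviate together (r between -0.067 and 0.013), so the numbers do not pair them. With a replicate block the calls at NF38 were 240 higher (25.3% of all genes) and 11 lower (21.5%). Under BMS493 at NF25 they were 61 higher (15.9% of all genes) and 82 lower (14.6%). The choice of members depended most on the pseudocount. With 0.5 in place of 1, 595 genes met the criteria and 251 of the 300 were among the top 300. With 0.1, 939 met them and 144 of the 300 were kept; the cause was not tested. On CPM 301 met them, and 218 of the 300 were kept. Leaving out 1 library of the rule gave 416 to 452 genes, with 262 to 299 of the 300 kept. Low counts limit single members: 18 had under 100 counts over the 3 NF33 morphant libraries.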
